A study of Mus musculus with 12 samples.

Results

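The 10 genes described here encode the classical MHC class I pathway of the mouse and the immunoproteasome: H2-K1, H2-D1, B2m, Tap1, Tap2, Tapbp, Psmb8, Psmb9, Psmb10 and Nlrc5. They were chosen by name, as the rows of the count files whose Ensembl IDs carry these symbols, and make up 10 of the 54532 gene IDs in the files. All 10 passed the filter on low counts, as did 19822 genes in all. The libraries were made from striatum taken 7 or 14 days after ischemic stroke, and their genotype labels are WT, cGAS-KO and STING-KO. Each of the 6 groups of day and genotype held 2 libraries, so there were 12 in all, and every animal was of the C57BL/6J strain. Per the labels, the deficient mice were made with CRISPR-Cas9. All groups had a stroke, and no uninjured group was analysed here. Whether the 2 libraries of a group came from separate mice is not stated in the labels, so the p-values measure only the spread between these libraries.

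MHC class I molecules show peptides from inside a cell to CD8 T cells and natural killer cells. The proteasome cuts proteins into peptides, the TAP transporter moves them into the endoplasmic reticulum, and tapasin helps load them onto a heavy chain paired with beta-2 microglobulin. In cells exposed to interferons, 3 immunosubunits take the place of the constitutive catalytic subunits of the proteasome, and NLRC5 acts as a transactivator of class I genes. In the brain, microglia and invading leukocytes are known to carry more of this machinery than most neurons.

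The totals of the libraries ran from 15956242 to 22126213 counts, and 3 counts, the limit that a count of 0 allows, corresponded to 0.134 to 0.195 CPM (counts scaled by the TMM-adjusted library total). This limit, like every counting interval, covers counting error only. The transcripts of the targeted genes did not follow the labels throughout. At 7 days Cgas stood at 5.55 and 5.66 CPM under the label cGAS-KO, above its 3.25 and 2.97 CPM under the label WT. Tmem173, the gene of STING, stood at 20.9 and 23.8 CPM under the label STING-KO at 7 days, above 2.80 and 2.71 CPM under the label WT. At 14 days these values were 2.40 and 5.21 CPM for STING-KO, below the 22.3 and 20.8 CPM of WT. Cgas at 14 days stood at 4.09 and 6.15 CPM in cGAS-KO, at 4.50 and 3.58 CPM in STING-KO and at 12.6 and 7.68 CPM in WT. Its 14-day difference between cGAS-KO and WT was not called (edgeR adjusted p = 0.27). Under the label STING-KO at 7 days Cgas stood at 11.2 and 12.6 CPM, above both cGAS-KO libraries. A whole-gene count does not show a short deletion. Whether labels were exchanged at 7 days was not tested. An exchange of WT with a knockout would turn the 7-day directions given here for that knockout against WT. The 7-day difference of the remaining knockout from WT would become the present difference between the knockouts, where none of the 10 genes was called. Such an exchange would also change the comparisons between days. The groups are called by their labels throughout. Striatal projection neuron markers, summed over 10 genes, ran from 141 to 490 CPM in the 7-day groups and from 842 to 7079 CPM in the 14-day groups. The 7-day WT libraries had the highest sums of cortical and hippocampal neuron markers, 1891 to 2207 CPM against at most 640 CPM elsewhere.

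**Figure D1:**
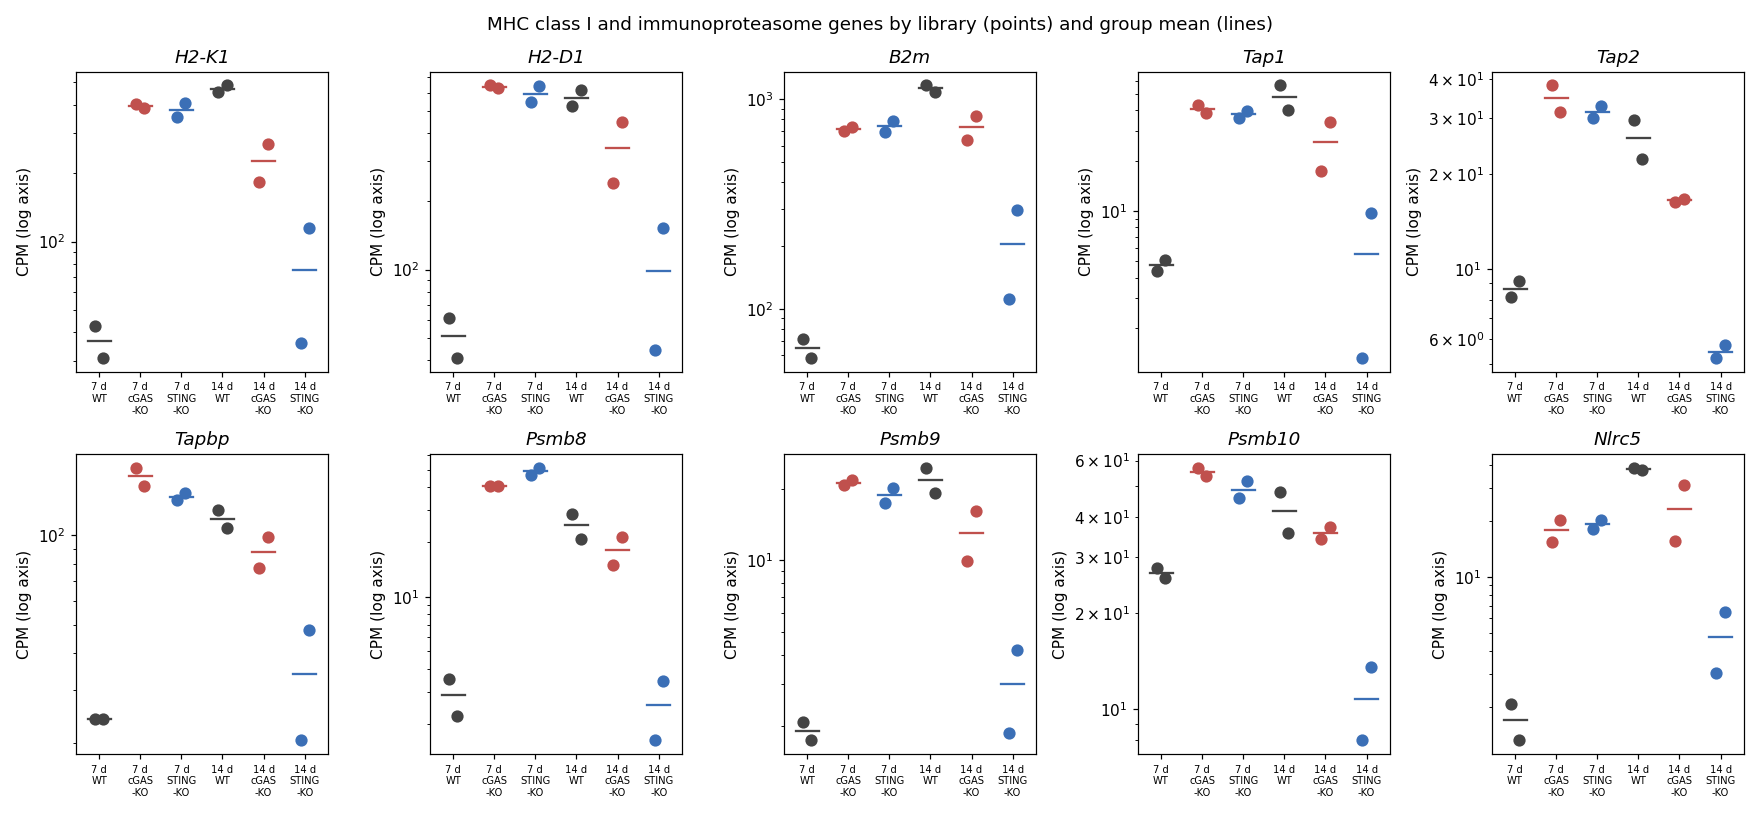
CPM of the 10 genes on log axes, with 1 point per library and a line at the mean of the 2 libraries, for the 6 groups of day and labelled genotype. The 7-day WT and 14-day STING-KO libraries lie below the other 4 groups for each gene; for H2-K1 the 7-day WT libraries stand at 42.5 and 30.7 CPM and the 14-day WT libraries at 454 and 485 CPM.

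The heavy chains H2-K1 and H2-D1, which hold the peptide, were lowest in the same groups. H2-K1 (chr17:33996017-34000347, minus strand, mm10) stood at 42.5 and 30.7 CPM in 7-day WT, at 403 and 386 CPM in cGAS-KO and at 352 and 407 CPM in STING-KO. At 14 days it stood at 454 and 485 CPM in WT, at 183 and 268 CPM for cGAS-KO and at 35.7 and 114 CPM in STING-KO. The 2 low groups, 7-day WT and 14-day STING-KO, did not overlap with any of the other 4. H2-D1 (chr17:35262730-35267499, plus strand) stood at 60.9 and 40.8 CPM in 7-day WT, at 645 and 629 CPM in cGAS-KO and at 545 and 640 CPM in STING-KO. Its 14-day values were 524 and 613 CPM for WT, 240 and 448 CPM for cGAS-KO and 44.4 and 152 CPM in STING-KO. Again the 7-day WT and 14-day STING-KO libraries were the lowest, and those 2 groups overlapped each other. Of the 150-base windows of H2-D1, 1.35% also occur in H2-Q1, so a small part of its reads could have been split between these genes.

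The RefSeq promoters of these genes, 300 bases each from 250 before to 50 after the transcript start in GRCm38.p6, were searched on both strands for an IRF core, AANNGAAA, and a kB site, GGGGATTCC. Promoters were in the table for 8 of the 10 genes. The stretches below are shown because H2-K1 and H2-D1 moved together; capitals mark the kB and IRF core matches, the latter on the opposite strand.
H2-K1: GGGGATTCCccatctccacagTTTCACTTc
H2-D1: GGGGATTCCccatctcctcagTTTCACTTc
They lie at chr17:34000429-34000458 on the minus strand and chr17:35262923-35262952 on the plus strand. In both genes the kB match began 21 bases before the IRF match, and 29 of the 30 bases were identical. Of all 32851 promoters in the table, 0.25% held the kB letters and 23.9% the IRF letters, which is a description of these windows and not evidence of binding.

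B2m, the light chain shared by all class I molecules, had the highest level per length of the 10 genes in each group. It lies at chr2:122147686-122153083 on the plus strand and stood at 71.9 and 58.2 CPM in 7-day WT, at 703 and 732 CPM in cGAS-KO and at 696 and 784 CPM in STING-KO. At 14 days its values were 1159 and 1085 CPM for WT, 637 and 831 CPM for cGAS-KO and 112 and 297 CPM in STING-KO. The 14-day WT libraries were above all 10 others. The B2m promoter also held an IRF core and, on the opposite strand, a CCAAT box, both in capitals in the stretch at chr2:122147540-122147639, shown to set it beside the heavy chains.
B2m: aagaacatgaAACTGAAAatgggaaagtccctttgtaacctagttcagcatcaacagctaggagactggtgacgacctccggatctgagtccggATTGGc
CCAAT boxes were found in 37.4% of all promoters and in 6 of the 8 searched here.

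Tap1 and Tap2 form the peptide transporter, and Tapbp encodes tapasin. Tap1 (chr17:34187553-34197225, plus strand) stood at 4.38 and 5.11 CPM in 7-day WT, at 42.7 and 38.6 CPM in cGAS-KO and at 35.9 and 39.7 CPM in STING-KO. At 14 days it stood at 56.1 and 40.1 CPM in WT, at 17.2 and 34.1 CPM in cGAS-KO and at 1.32 and 9.70 CPM in STING-KO. The 2 libraries of the last group were far apart, and the lower of them was the lowest of all 12. Tap2 (chr17:34203527-34216321, plus strand) stood at 8.13 and 9.15 CPM in 7-day WT, at 38.1 and 31.3 CPM in cGAS-KO and at 30.1 and 32.8 CPM in STING-KO. At 14 days it stood at 29.5 and 22.3 CPM in WT, at 16.3 and 16.7 CPM in cGAS-KO and at 5.22 and 5.73 CPM in STING-KO. The 14-day STING-KO libraries were lower here than the 7-day WT libraries, with no overlap. Tapbp (chr17:33915899-33929292, plus strand) ranged from 20.3 CPM in a 14-day STING-KO library to 169 CPM in a 7-day cGAS-KO library. Its 7-day WT libraries, at 24.01 and 24.08 CPM, lay within the range of the 14-day STING-KO libraries, 20.3 and 47.9 CPM. Exons of Tap1 overlap those of Psmb9 on the other strand, and exons of Tap2 and Tapbp overlap other annotated genes. The strand setting of the counting is not given in the sources used here, so reads of such pairs cannot be told apart.

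The 3 immunosubunits are the catalytic subunits encoded by Psmb8, Psmb9 and Psmb10. Psmb8 (chr17:34197721-34201454, plus strand) stood at 3.53 and 2.20 CPM in 7-day WT, at 40.9 and 40.4 CPM in cGAS-KO and at 46.6 and 51.3 CPM in STING-KO. At 14 days it stood at 28.6 and 20.9 CPM in WT, at 15.04 and 21.2 CPM in cGAS-KO and at 1.62 and 3.45 CPM in STING-KO. Unlike H2-K1 and B2m, it was higher in each 7-day knockout library than in either 14-day WT library. Psmb9 (chr17:34181987-34187764, minus strand) stood at 2.08 and 1.74 CPM in 7-day WT, at 20.8 and 21.7 CPM in cGAS-KO and at 17.5 and 20.2 CPM in STING-KO. At 14 days it stood at 24.5 and 19.2 CPM in WT, at 9.97 and 16.2 CPM in cGAS-KO and at 1.86 and 4.17 CPM in STING-KO. Its 14-day WT libraries overlapped the 7-day knockout libraries. Psmb10 (chr8:105935735-105938444, minus strand) stood at 27.7 and 25.8 CPM in 7-day WT, at 57.0 and 53.8 CPM in cGAS-KO and at 45.8 and 51.6 CPM in STING-KO. Its 14-day values were 47.7 and 35.7 CPM in WT and 34.0 and 37.2 CPM in cGAS-KO. Its 14-day STING-KO libraries, at 7.98 and 13.5 CPM, were below every other library.

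The Psmb8 promoter held a GAS element, TTCNNNGAA, which 8.3% of all promoters hold; it is in capitals in the stretch at chr17:34198088-34198117, shown as the sole GAS match among the 8 promoters.
Psmb8: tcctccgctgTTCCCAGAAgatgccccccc
Tap1 and Psmb9 are transcribed away from each other, from RefSeq starts 226 bases apart. A CCAAT box between these starts, in capitals at chr17:34187322-34187351 on the strand of Tap1, falls in both promoter windows and is shown for that reason.
Tap1 and Psmb9: gggctcggctttCCAATcagcggctgcgcg
None of the 4 motifs was found in the Psmb10 window.

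Nlrc5, the class I transactivator (chr8:94434356-94527272, plus strand), stood at 2.08 and 1.33 CPM in 7-day WT, at 15.4 and 20.1 CPM in cGAS-KO and at 18.1 and 20.1 CPM in STING-KO. At 14 days it stood at 38.4 and 37.4 CPM in WT, at 15.5 and 31.0 CPM in cGAS-KO and at 3.06 and 6.45 CPM in STING-KO. Both 14-day WT libraries were above all others. Across the 12 libraries the log2 CPM of pairs of the 10 genes correlated with Pearson's r from 0.63 for Psmb10 with Nlrc5 to 0.99 for H2-K1 with H2-D1, with a median of 0.94. These correlations describe libraries that fall into separate groups and share their depth.

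The first comparisons ask how each labelled knockout differed from WT at 7 days. All 10 genes rose in the libraries labelled cGAS-KO, a call that 27.8% of all genes tested shared in that direction. The median log2 change of the 10 was 3.41, against 0.04 over all genes tested. The largest change was that of Psmb8, 3.83 ± 0.32 (SE, n = 2 libraries a group; edgeR quasi-likelihood test, Benjamini-Hochberg adjusted p = 2.16e-06), and the smallest that of Psmb10, 1.05 ± 0.21 (edgeR adjusted p = 0.00154). Under the label STING-KO all 10 genes rose as well, beside 26.3% of all genes. Psmb8 rose by 4.10 ± 0.32 (edgeR adjusted p = 1.38e-06) and Psmb10 by 0.86 ± 0.21 (edgeR adjusted p = 0.00541); the median was 3.34. Without the second STING-KO library the change of Psmb10 was 0.73 and lost its call, which left 9 of the 10. H2-K1 was 10.8-fold and 10.4-fold higher in the 2 comparisons, and B2m 11.0-fold and 11.4-fold higher. Both comparisons use the same 2 WT libraries, so they are not independent. No library of either knockout overlapped the WT libraries for any of the 10 genes, a description without the share of all genes that did not overlap.

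**Figure D2:**
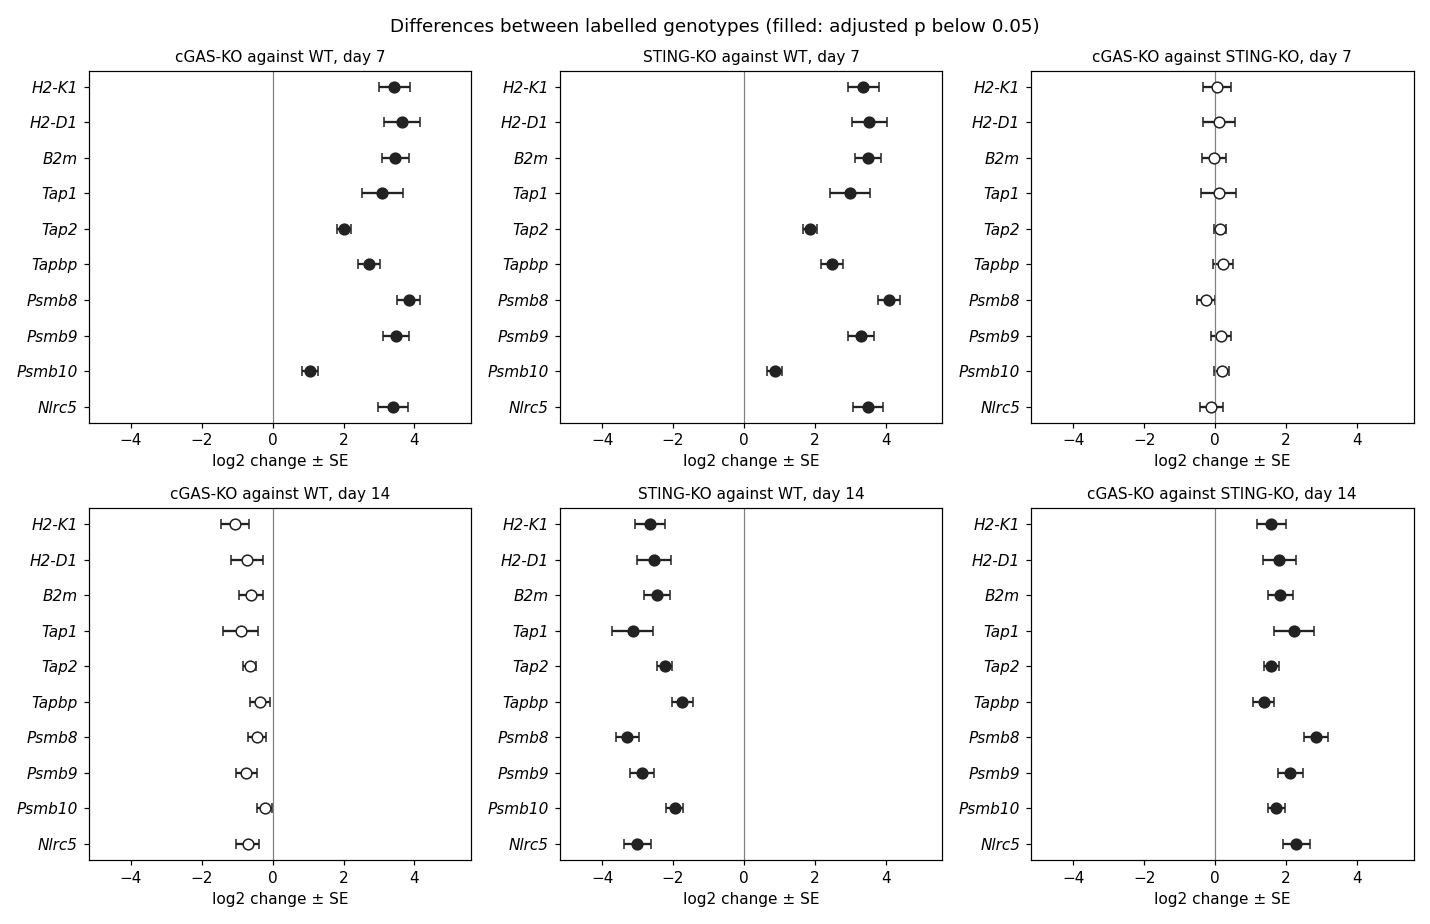
Log2 change with its SE for the 10 genes in 6 comparisons between labelled genotypes, at 7 days above and 14 days below; filled points have an edgeR adjusted p below 0.05. All 10 points are filled and to the right of 0 for both knockouts against WT at 7 days, all are open for cGAS-KO against WT at 14 days, and all are filled and to the left of 0 for STING-KO against WT at 14 days.

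Markers of myeloid cells moved with these genes. The 12 microglial markers, all of them detected in each group, summed to 343 to 357 CPM in 7-day WT, 3217 to 3614 CPM in 7-day cGAS-KO and 3926 to 4407 CPM in 7-day STING-KO. The 12 monocyte and macrophage markers summed to 16.5 to 36.9 CPM, 4870 to 5454 CPM and 5550 to 6279 CPM in the same order. Lyz2, at 3952 to 5181 CPM, and Cd68, at 590 to 908 CPM, made up most of the knockout sums. Cd163 overlapped with WT in STING-KO but not in cGAS-KO. Per 1000 CPM of the microglial markers, H2-K1 stood at 119 and 89.5 CPM in 7-day WT, at 125 and 107 CPM in cGAS-KO and at 89.6 and 92.3 CPM in STING-KO. On that scale, which was chosen after the data had been seen, each knockout overlapped WT for H2-K1, but the knockouts did not overlap each other. Psmb10 was higher in WT, at 77.6 and 75.1 CPM against 11.7 to 17.7 CPM, as were Tap2, at 22.8 and 26.7 CPM against 7.44 to 11.8 CPM, and Tapbp, at 67.2 and 70.1 CPM against 31.4 to 52.5 CPM. Psmb8 went the other way, at 9.9 and 6.4 CPM in WT against 11.2 to 12.7 CPM in the knockouts. Psmb9, at 5.81 and 5.06 CPM in WT, was higher in cGAS-KO, at 6.47 and 6.01 CPM, and lower in STING-KO, at 4.46 and 4.59 CPM. H2-D1 and B2m were higher in both cGAS-KO libraries than in WT and overlapped WT in STING-KO. For B2m the gap was small, with 219 and 203 CPM in cGAS-KO against 201 and 170 CPM in WT. Tap1 was lower in STING-KO than in WT and overlapped WT in cGAS-KO. Nlrc5 overlapped WT in both knockouts. Per 1000 CPM of the monocyte and macrophage markers H2-K1 was higher in WT, at 1152 and 1861 CPM against 63.4 to 82.8 CPM in the knockouts. The part of these cells in the changes was not tested. In bulk RNA, fewer cells of a type and less RNA per cell cannot be told apart. Choroid plexus markers were also high in the 7-day knockouts, 3303 to 6157 CPM against 216 to 339 CPM in WT, and their part was not tested.

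At 14 days all 10 genes were lower in STING-KO than in WT, beside 17.4% of all genes, with a median log2 change of -2.59 against -0.03 over all genes. Psmb8 fell by 3.30 ± 0.33 (edgeR adjusted p = 5.54e-05), Tap1 by 3.14 ± 0.57 (edgeR adjusted p = 0.00187) and Tapbp, the least changed, by 1.74 ± 0.30 (edgeR adjusted p = 0.0014). H2-K1 was 6.27-fold lower and B2m 5.49-fold lower. All 10 calls held without either STING-KO library, but the sizes moved. The log2 change of H2-K1 was -2.03 without the first and -3.73 without the second, and that of B2m -1.91 and -3.34. The microglial sum was 655 to 1206 CPM in 14-day STING-KO and 2744 to 2914 CPM in 14-day WT, and the monocyte and macrophage sum was 58.9 to 153 CPM and 795 to 1106 CPM. Per 1000 CPM of the microglial markers, a scale chosen after the data had been seen, H2-K1 stood at 54.5 and 94.7 CPM in STING-KO and at 166 and 166 CPM in WT. B2m stood at 171 and 246.5 CPM in STING-KO and at 422 and 372 CPM in WT on that scale, where Tap2 and Tapbp overlapped. Of 13 T and NK cell markers tested 11 were lower in STING-KO, although the sums overlapped, at 32.5 to 48.3 CPM and 38.3 to 44.6 CPM. Cd4 went the other way and made up most of the STING-KO sums, at 29.0 and 40.6 CPM against 11.1 and 8.07 CPM in WT. Oligodendrocyte markers summed to 9159 to 9275 CPM against 21020 to 21940 CPM in WT (7 of 8 lower). Striatal projection neuron markers summed to 6380 to 7079 CPM against 842 to 1108 CPM (10 of 10 higher, beside 16.5% of all genes). The part of these cell types in the difference was not tested.

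None of the 10 genes passed the edgeR test for cGAS-KO against WT at 14 days, where 0.0303% of all genes, 6 genes, were called in either direction. At an unadjusted p under 0.05 there were 3 members, and the DESeq2 Wald test also called 0. The share of all genes at that unadjusted threshold is not given here, so the count of 3 is only a description. The 10 log2 changes ran from -1.06 ± 0.40 for H2-K1 (edgeR adjusted p = 0.376) to -0.23 ± 0.21 for Psmb10 (edgeR adjusted p = 0.727). For 8 of the 10 genes both cGAS-KO libraries were below both WT libraries, and Psmb8 and Psmb10 overlapped. The share of all genes without overlap is not given here. An exact two-sided permutation test of 2 libraries against 2 cannot go below p = 0.333, so this count is only a description. Missing the threshold does not show that the groups were alike.

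The labelled knockouts were also compared with each other. At 7 days none of the 10 genes was called, with edgeR or DESeq2, beside 0.161% of all genes in either direction with edgeR. Of the members 0 had an unadjusted p under 0.05, a count given without the share of all genes. Their log2 differences, cGAS-KO minus STING-KO, ran from -0.27 ± 0.26 for Psmb8 to 0.23 ± 0.29 for Tapbp. At 14 days all 10 were higher in cGAS-KO than in STING-KO, beside 18.2% of all genes, with a median difference of 1.83. Psmb8 differed most, 2.85 ± 0.33 (edgeR adjusted p = 0.000184), and Tapbp least, 1.37 ± 0.30 (edgeR adjusted p = 0.00511). H2-K1, H2-D1 and Tap1 lost their calls without the second 14-day cGAS-KO library, with no filter on low counts and with only the compared libraries in the fit, which left 7 of the 10 each time. Without the second STING-KO library Tap1 differed by 4.28 and without the first by 1.38.

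Within WT, all 10 genes rose from 7 to 14 days, beside 24.1% of all genes, with a median log2 change of 3.41. Nlrc5 rose most, by 4.48 ± 0.42 (edgeR adjusted p = 1.66e-05), followed by B2m with 4.11 ± 0.39 (edgeR adjusted p = 1.84e-05). Psmb10 rose least, by 0.64 ± 0.21 (edgeR adjusted p = 0.0297), and this call was lost without the first 14-day WT library or without either 7-day WT library. The microglial sum was 343 to 357 CPM at 7 days and 2744 to 2914 CPM at 14 days. Per 1000 CPM of these markers, B2m stood at 201 and 170 CPM at 7 days and at 422 and 372 CPM at 14 days. Psmb10 went the other way, from 77.6 and 75.1 CPM to 17.4 and 12.2 CPM, as did Tap2 and Tapbp. Tap1 and Psmb8 overlapped between the days on that scale. The part of microglia in the rise was not tested.

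For STING-KO all 10 genes fell between 7 and 14 days, beside 29.5% of all genes, with a median of -2.43. Psmb8 fell by 4.28 ± 0.33 (edgeR adjusted p = 1.31e-06) and B2m, the least changed, by 1.86 ± 0.35 (edgeR adjusted p = 0.000934). Without the first 14-day library B2m fell by 1.31 and without the second by 2.74. From 7 to 14 days the microglial sum went from 3926 to 4407 CPM to 655 to 1206 CPM, the monocyte and macrophage sum from 5550 to 6279 CPM to 58.9 to 153 CPM and the choroid plexus sum from 3770 to 5912 CPM to 707 to 1469 CPM. Striatal projection neuron markers went from 200 to 490 CPM to 6380 to 7079 CPM, and the part of these cell types was not tested. For cGAS-KO 4 genes fell, beside 17.0% of all genes: Tap2 by 1.07 ± 0.18 (edgeR adjusted p = 0.00129), Psmb8 by 1.17 ± 0.26 (edgeR adjusted p = 0.00649), Psmb10 by 0.64 ± 0.21 (edgeR adjusted p = 0.0401) and Tapbp by 0.84 ± 0.29 (edgeR adjusted p = 0.0481). Leaving out 1 library of these groups at a time left between 1 and 3 of the 10 called, and the call of Tapbp was also lost, at a log2 change of -0.85 to -0.84, with DESeq2 size factors, no filter or the legacy quasi-likelihood form. B2m, at 0.03 ± 0.34, and Nlrc5, at 0.38 ± 0.33, had log2 changes above 0 and overlapping libraries.

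**Figure D3:**
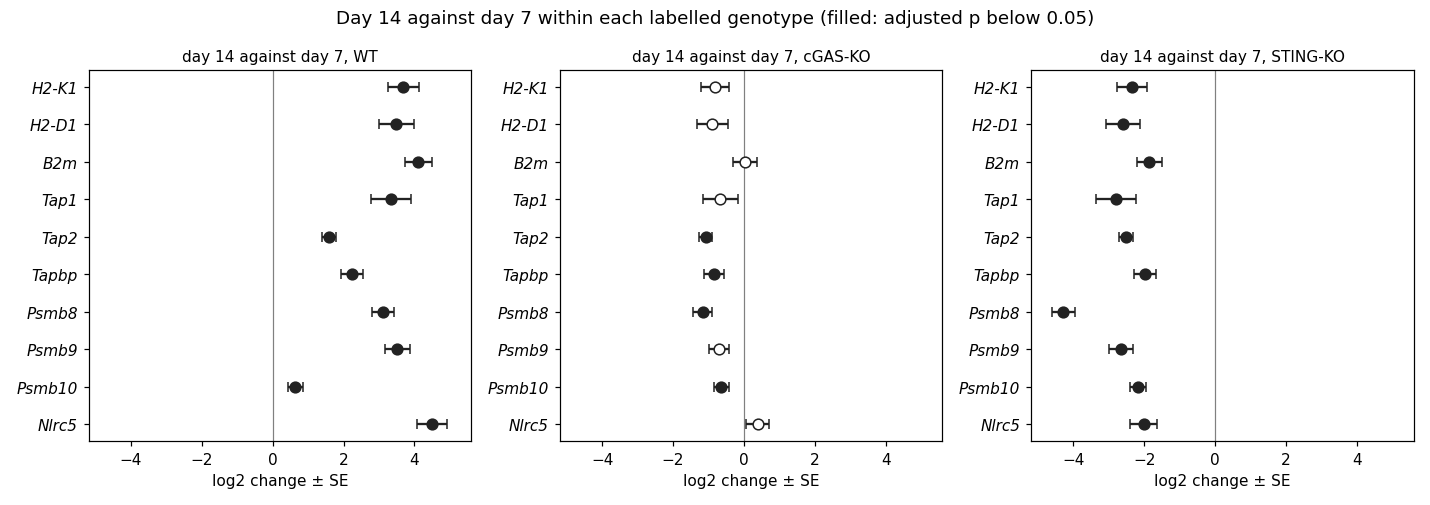
Log2 change from 7 to 14 days with its SE for the 10 genes in each labelled genotype; filled points have an edgeR adjusted p below 0.05. All 10 points are to the right of 0 in WT and to the left of 0 in STING-KO, and in cGAS-KO the filled points are Tap2, Tapbp, Psmb8 and Psmb10.

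The difference between the days in each knockout effect was tested as an interaction. For cGAS-KO the effect was lower at 14 than at 7 days for all 10 genes, beside 21.0% of all genes, from -1.28 ± 0.30 for Psmb10 to -4.49 ± 0.58 for H2-K1 on the log2 scale. For STING-KO it was lower for all 10, beside 27.6% of all genes, from -2.82 ± 0.31 for Psmb10 to -7.39 ± 0.46 for Psmb8. Each of these values rests on both WT groups.

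The balance between immunosubunits and constitutive subunits was compared within libraries, on values per length (counts over merged exon length, scaled to the same total in each library). Of the summed level of the 6 catalytic transcripts, the immunosubunits made up 10.8% and 9.70% in 7-day WT, 25.4% and 26.9% in 7-day cGAS-KO and 20.7% and 22.5% in 7-day STING-KO. At 14 days they made up 32.6% and 30.3% in WT, 24.1% and 30.2% in cGAS-KO and 5.92% and 9.77% in STING-KO. The share was low in the same 2 groups in which the 10 genes were low. Psmb9 stood at 0.233 and 0.230 of the level of Psmb6, its constitutive counterpart, in 14-day WT and at 0.0652 to 0.107 in the 7-day knockouts. Psmb8 relative to Psmb5 did not show that order: 0.162 and 0.142 in 14-day WT lay below or within the 0.158 to 0.186 of the 7-day knockouts. Psmb10 was above the level of Psmb7 except in the 7-day WT and 14-day STING-KO libraries, where the ratio was 0.446 to 0.844. These ratios were not tested; an exact two-sided permutation test of 2 libraries against 2 cannot go below p = 0.333.

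**Figure D4:**
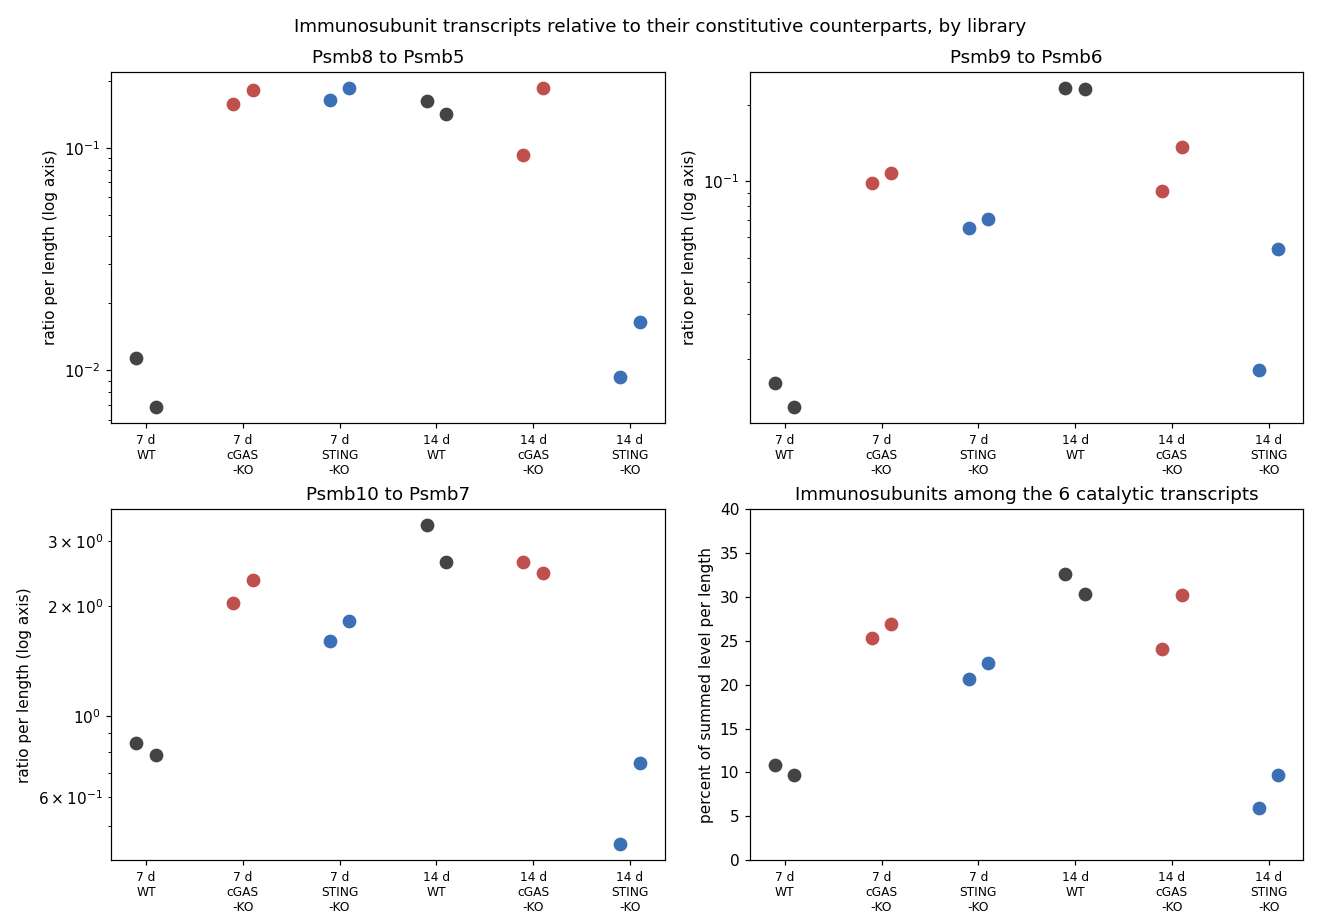
Ratio of each immunosubunit transcript to its constitutive counterpart per length, on log axes, and the immunosubunits' percentage of the 6 catalytic transcripts, with 1 point per library. The percentage lies between 5.92 and 10.8 in 7-day WT and 14-day STING-KO and between 20.7 and 32.6 in the other 4 groups.

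Ratios among the members differed in how steady they were. H2-K1 stood at 0.525 to 0.761 of the level of H2-D1 per length in all 12 libraries. The summed level of both heavy chains relative to B2m was 0.388 to 0.474 in the 6 libraries of 7 days and 0.210 to 0.319 in the 6 of 14 days, with no overlap between the days in any genotype. Tap1 relative to Tap2 was 0.371 and 0.386 in 7-day WT and 1.31 and 1.24 in 14-day WT. In 14-day STING-KO it was 0.175 in the first library and 1.17 in the second.

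**Figure D5:**
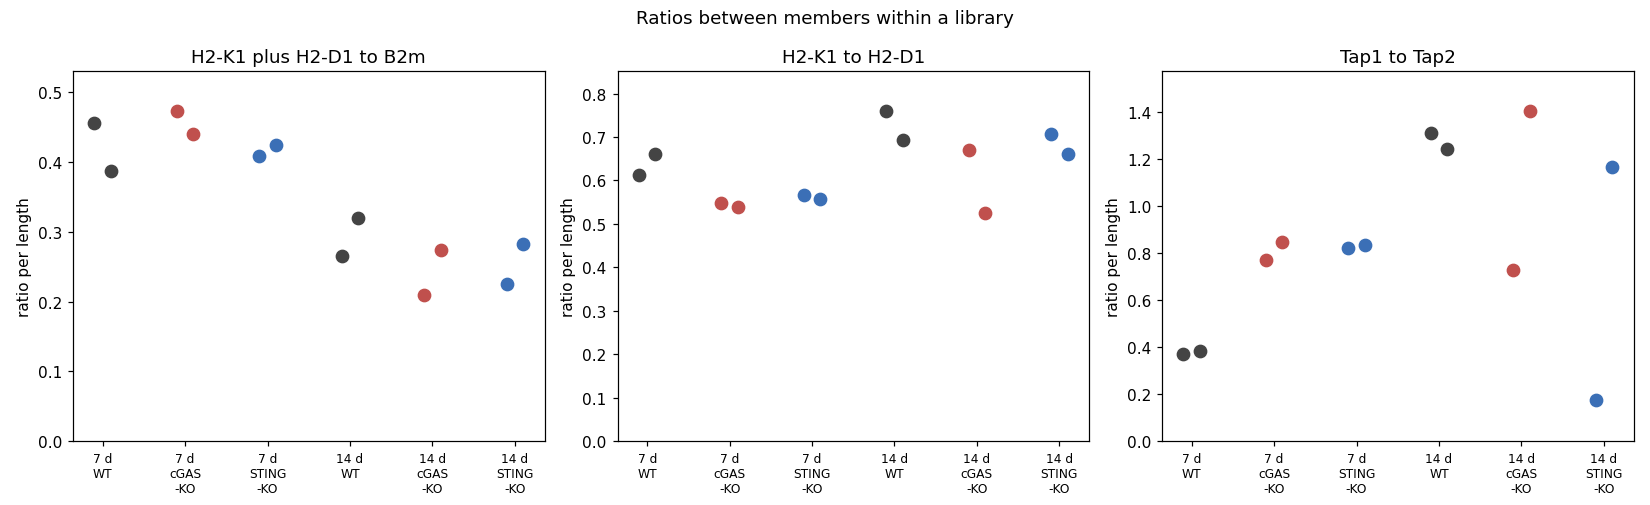
Ratios per length between members within each library, with 1 point per library: both heavy chains to B2m, H2-K1 to H2-D1, and Tap1 to Tap2. The heavy chain to B2m ratio is 0.388 or above in the 7-day libraries and 0.319 or below in the 14-day libraries.

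Other genes of the pathway were read as lists. Of 20 other class I heavy chains and class I-like genes 17 were tested, and 11 rose in each 7-day knockout against WT, with none lower, beside the 27.8% and 26.3% of all genes that rose in cGAS-KO and STING-KO. Among them Hfe, a class I-like regulator of iron uptake, rose by 3.03 ± 0.21 (edgeR adjusted p = 6.94e-07) and Mr1, which presents microbial metabolites, by 2.71 ± 0.19 (edgeR adjusted p = 7.36e-07) in cGAS-KO. In 14-day STING-KO 11 of the 17 were lower than in WT and 1 was higher, beside 17.4% of all genes lower. Of 13 genes of peptide loading and trimming, 9 and 8 rose in the 7-day knockouts, cGAS-KO and STING-KO, beside the same 27.8% and 26.3%. Erap1, the aminopeptidase that trims peptides in the endoplasmic reticulum, rose by 2.36 ± 0.21 in cGAS-KO (edgeR adjusted p = 3.17e-06).

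The remaining proteasome genes were taken as separate lists. Psme1 and Psme2, the interferon-inducible PA28 subunits, rose by 1.51 ± 0.18 and 1.78 ± 0.19 in 7-day cGAS-KO and fell by 1.37 ± 0.18 and 1.17 ± 0.19 in 14-day STING-KO against WT (edgeR adjusted p at most 0.000725). Psme3, a nuclear PA28 subunit, had a log2 change of -0.32 ± 0.12 in 7-day cGAS-KO (edgeR adjusted p = 0.0466). Of 16 other core subunits and assembly factors, 1 rose in 7-day cGAS-KO and 5 in STING-KO, and 1 of 18 regulatory particle subunits rose in each, with 1 lower in cGAS-KO, beside 27.8% and 26.3% of all genes higher. In WT 8 of these 18 fell from 7 to 14 days, beside 19.7% of all genes, and none of the 16 was called. The 3 constitutive catalytic subunits fell from 7 to 14 days in WT, cGAS-KO and STING-KO: Psmb7 by 1.24, 0.85 and 0.65, Psmb5 by 0.97, 0.80 and 0.55, and Psmb6 by 0.49, 0.86 and 1.61 on the log2 scale (edgeR adjusted p at most 0.0304).

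Among regulators, Irf1, which acts in interferon signalling, rose by 1.86 in 7-day cGAS-KO and fell by 2.31 in 14-day STING-KO against WT on the log2 scale (edgeR adjusted p at most 0.000267). Rfx5, a subunit of the complex that binds class I promoters, was called in none of the 11 comparisons, with log2 changes of -0.36 to -0.02 in the 9 that compare groups. Irf8, a factor of myeloid cells, rose by 4.50 ± 0.33 in 7-day cGAS-KO (edgeR adjusted p = 1.26e-06). The interferon genes Ifng and Ifnb1 were at 0 or at most 0.142 CPM in every library and were not tested. Ifngr1, a receptor chain for interferon gamma, rose by 2.58 ± 0.16 in 7-day cGAS-KO (edgeR adjusted p = 3.86e-07).

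Receptors that read class I molecules were described by cell type. Of 6 myeloid receptors 5 were tested, and all 5 rose in each 7-day knockout, beside 27.8% and 26.3% of all genes, with Pirb, an inhibitory receptor for class I, up by 5.66 ± 0.35 in cGAS-KO (edgeR adjusted p = 4.27e-07). Of 12 lymphocyte receptors 5 were tested. Cd8a, the co-receptor of cytotoxic T cells, rose in WT from 0.168 and 0.256 CPM at 7 days to 5.55 and 4.39 CPM at 14 days (edgeR adjusted p = 0.00397). The 15 T and NK cell markers summed to 5.16 to 5.83 CPM in 7-day WT and to 38.3 to 44.6 CPM in 14-day WT.

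The genes whose log2 CPM followed the mean of the 10 most closely over the 12 libraries, among 15142 genes compared, were Bst2 with r = 0.996, Parp10 with r = 0.992, Sp110 with r = 0.990, Myd88 with r = 0.989 and Lgals9 with r = 0.989. Bst2, which encodes tetherin, stood at 2.51 to 3.81 CPM in 7-day WT and at 81.7 to 93.8 CPM in 14-day WT.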

How the data were processed

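The deposited files hold raw counts per Ensembl gene ID for 12 libraries. Per the submitters' processing notes, the authors aligned reads to mm10 with HISAT2 and counted them with featureCounts; versions and the strand setting are not given in the sources used here. Symbols and positions came from GENCODE M21 and matched 54495 of 54532 IDs. The 10 genes, the gene lists and the comparisons were chosen with earlier results of these data known.

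The tests ran on these counts in edgeR 4.0.16 (R 4.3.3): filterByExpr (minimum count 10, minimum total 15) kept 19822 genes, with TMM factors, 1 fit of 6 groups, 6 residual degrees of freedom, and a robust quasi-likelihood test. P-values were Benjamini-Hochberg adjusted over all genes of a comparison, with a threshold of 0.05; the biological coefficient of variation was 0.194. CPM used TMM-scaled totals. The test was tested on simulated data for cGAS-KO against WT at 14 days. It recovered 43% of 100 changes of 2-fold and 86% of 100 changes of 4-fold, and 9 of its 138 calls were false. Beside the 10 genes, the text names up to 3 called genes per list and comparison by adjusted p, fixed subunits and regulators, the targeted genes, and the 5 genes most like the mean of the 10. One gene that this rule names is not reported here.

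Alternatives were DESeq2 1.42.0 (size factors or Wald test), no filter, a replicate block, the legacy quasi-likelihood form, only the libraries compared, longest-transcript lengths and leaving out each library. A fit on 4 groups, which drops WT at 7 days and STING-KO at 14 days because they stood apart, was added after seeing the data. Libraries of a group differed by more than sampling noise (chi-square per gene 7.75 to 48.5), so none was a repeat deposit.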

Additional observations from a re-analysis of the deposited data

Results flagged for a closer look

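For each of the 10 genes the difference between a labelled knockout and WT changed from 7 to 14 days, by a test of that change itself (the interaction term of the edgeR fit). For cGAS-KO, the 14-day log2 difference minus the 7-day one was -4.49 for H2-K1, -4.37 for H2-D1, -4.08 for B2m, -4.00 for Tap1, -2.65 for Tap2. It was -3.08 for Tapbp, -4.28 for Psmb8, -4.22 for Psmb9, -1.28 for Psmb10, -4.10 for Nlrc5, and the largest of these 10 edgeR adjusted p-values was 0.00578. For STING-KO, the 14-day log2 difference minus the 7-day one was -6.02 for H2-K1, -6.08 for H2-D1, -5.96 for B2m, -6.13 for Tap1, -4.10 for Tap2. It was -4.22 for Tapbp, -7.39 for Psmb8, -6.18 for Psmb9, -2.82 for Psmb10, -6.50 for Nlrc5, and the largest of these 10 edgeR adjusted p-values was 7.99e-05. Over all genes tested, 21.0% were called lower in this term for cGAS-KO and 27.6% for STING-KO. All of these values rest on the 7-day groups, in which Cgas and Tmem173 did not follow the labels against WT. For STING-KO each gene was above WT at 7 days and below it at 14 days in all libraries of the comparison. For cGAS-KO each was above WT at 7 days, and the 14-day difference from WT was called for none. The share of all genes whose libraries separated in these ways is not given here, so the separation is only a description.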

How the results depend on the processing

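The number of the 10 genes called stayed within 1.5 times the value reported under every alternative run, except for 14 against 7 days in cGAS-KO, where 4 were called and leaving out 1 library at a time gave 1 to 3. The 4-group fit, added after seeing the data, called 6 there. With a replicate block 4 were called there and the numbers called were unchanged in the other 10 comparisons. Same-numbered libraries deviated together by r of -0.09 to 0.20. With so few libraries a group, this check cannot show whether such libraries were paired. Signs turned only for uncalled changes when 1 library was left out. For cGAS-KO against STING-KO at 7 days the log2 ranges were -0.0485 to 0.161 for H2-K1, -0.0115 to 0.22 for H2-D1, -0.13 to 0.0398 for B2m, -0.0053 to 0.24 for Tap2 and -0.349 to 0.0734 for Nlrc5. For 14 against 7 days in cGAS-KO they were -0.18 to 0.19 for B2m and -0.21 to 0.78 for Nlrc5. The cause was not tested. With longest-transcript lengths in place of merged exons, the levels per length of H2-K1, B2m, Tap2 and Psmb8 moved beyond their spread.

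Over all genes, cGAS-KO against WT at 14 days gave 6 calls, 29 with no filter, 151 with DESeq2, 16 with only the libraries compared and 0 to 18 with 1 library left out. The knockouts against each other at 7 days gave 32 calls, 60 with no filter, 5 with the legacy form, 263 with DESeq2, 2 with only the libraries compared, 10 in the 4-group fit and 0 to 202 with 1 library left out. STING-KO against WT at 14 days gave 6717 calls, 4271 with only the libraries compared and 4203 without the first 14-day WT library. The knockouts at 14 days gave 7112, then 4614 with only the libraries compared and 4632 or 4728 without the second cGAS-KO or first STING-KO library. WT over time gave 8693, and 5579 without the second 7-day library; cGAS-KO over time gave 6022, and 3423 or 2968 without the first 14-day or first 7-day library.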
